A study of Mus musculus with 6 samples.

Results

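Amino acid transporters of the solute carrier (Slc) families were examined in mouse kidneys at embryonic day 17 (E17). The genes are all those in the deposited table whose symbol places them in families 1, 3, 6, 7, 36, 38 or 43, which gave 62 of 23219 gene symbols. The mutant kidneys (Six2Cre Mta2flx/flx, numbered 6, 8 and 9) carried a Cre recombinase under Six2 together with floxed Mta2, and the control kidneys (Mta2flx/flx, numbered 5, 7 and 11) carried the same floxed alleles without Cre. Six2 marks nephron progenitors, so Cre is active in the cells that give rise to the nephron epithelium, including the proximal tubule, while the collecting duct, most stroma and the vessels keep Mta2. Mta2 encodes a subunit of NuRD, a chromatin remodelling and deacetylase complex. Because Cre was present in mutant kidneys only, the transgene and the loss of Mta2 cannot be told apart. The comparison asks how transcript levels differ when this lineage loses Mta2.

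Free amino acids filtered at the glomerulus are taken back by the proximal tubule. Carriers of the apical brush border (Slc1a1, Slc3a1 with Slc7a9 or Slc7a13, Slc6a18, Slc6a19, Slc6a20a, Slc6a20b and Slc36a2) draw them into the cell, and basolateral carriers (Slc7a7, Slc7a8, Slc38a3 and Slc43a2) release them to the blood. Several work as pairs of a heavy chain from family 3, which brings the complex to the membrane, and a light chain from family 7, which carries the substrate. In humans, loss of SLC3A1 or SLC7A9 causes cystinuria, loss of SLC6A19 causes Hartnup disorder and loss of SLC7A7 causes lysinuric protein intolerance. Other members feed amino acids to most growing cells, sit on lysosomes or other internal membranes, or clear neurotransmitters and osmolytes.

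Levels are given in BPM, the covered bases of a gene scaled to 1000000 covered bases per library, where covered bases are the summed read depth over a gene, as the steps between the deposited values imply. The 6 libraries held 794 to 1235 megabases of covered bases. Read numbers are unknown, so no counting interval is given. The labels do not say if each kidney is from its own embryo or litter, so p-values measure only how these 6 samples scatter, and that scatter may be technical. Mutant 6 stood apart on the first principal component of all genes (26.2% of the variance) at -70.3, against 4.38 to 26.2 in the other 5 kidneys, control 5 on the second at 55.0, against -39.3 to 9.03, and control 11 on the third at 54.5, against -28.6 to 8.05. Control 5 also had the fewest covered bases. Mutant 9 carried muscle transcripts (8 muscle markers summed to 327 BPM, against 5.04 to 15.0 BPM in the other 5 kidneys). Mta2 itself stood at 158 ± 26.6 BPM in mutant and 209 ± 11.0 BPM in control kidneys (SD, n = 3 each), with no overlap. Its log2 fold change was -0.41 (95% interval -0.84 to 0.01, limma adjusted p = 0.887), so the targeted gene did not pass the test either. Of 26 proximal tubule markers in a list that holds no amino acid transporter, 23 reached 1 BPM in every kidney.

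Of the 62 members, 44 reached at least 1 BPM in at least 3 libraries and were tested, and 0 of these were above that minimum in libraries of 1 group only. None of the 44 passed: limma called 0 at an adjusted p of 0.05, as it did for 0% of all 13977 genes tested, and the smallest adjusted p of a member was 0.854. In simulated data the same fit recovered only 16.7% of 2-fold changes, so members that did not pass are not shown to be unchanged. At an unadjusted p under 0.05, 1 member was lower (2.27% of 44, against 2.7% of all genes) and 3 were higher (6.82%, against 2.9%). These were Slc38a10 on the lower side and Slc1a3, Slc38a2 and Slc38a4 on the higher side. Groups did not overlap for 5 lower members (11.4%, against 5.12% of all genes), namely Slc1a1, Slc6a4, Slc7a1, Slc38a10 and Slc43a2. They also did not overlap for 5 higher members (11.4%, against 6.1%), namely Slc1a3, Slc6a17, Slc36a4, Slc38a1 and Slc38a4. The log2 fold change was below 0 for 25 members (56.8%, against 47.4% of all genes) and above 0 for 19 (52.6% of all genes lay above 0). The counts at unadjusted p rested on single libraries. Without control 5 they were 6 lower and 0 higher, without mutant 6 they were 2 and 1, and without mutant 8 they were 3 and 2. Without control 7 or without mutant 9 they were 2 lower and 2 higher in each case. Summed over the 62 members, the level was 2723, 2719.5 and 2579 BPM in mutants 6, 8 and 9 and 2545, 2950 and 2869.5 BPM in controls 5, 7 and 11, so the groups overlapped in total carrier transcript.

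**Figure D1:**
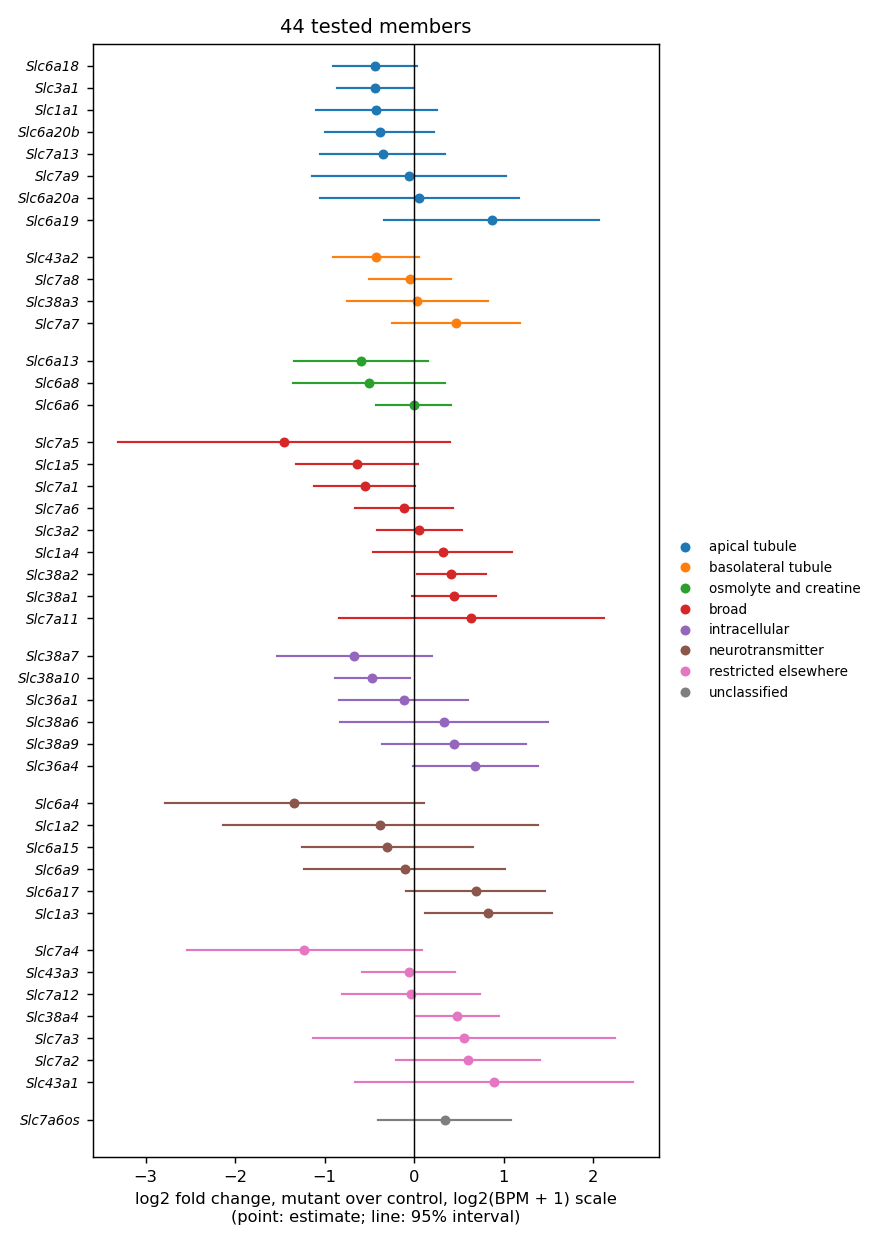
Log2 fold changes (mutant over control, log2(BPM + 1) scale) of the 44 tested members, grouped by class, with limma's 95% intervals as lines. Of the 8 apical members, 6 lie left of 0, and the broad and intracellular classes spread to both sides.

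Among the members, levels per length of transcript (BPM per kilobase of annotated exon) were led by Slc3a1, the heavy chain rBAT of the apical cystine and dibasic amino acid carrier, at 81.7 ± 18.7 BPM per kb in mutant and 109 ± 16.3 BPM per kb in control kidneys (SD, n = 3 each). Slc38a10, a carrier of glutamine and related amino acids on internal membranes, stood at 40.6 ± 0.830 BPM per kb in mutant and 58.3 ± 19.9 BPM per kb in control kidneys. Slc38a2, the widely expressed system A carrier of small neutral amino acids, stood at 49.8 ± 4.68 BPM per kb in mutant and 37.7 ± 7.78 BPM per kb in control kidneys. Slc6a18, an apical carrier of neutral amino acids, stood at 32.6 ± 6.03 and 45.2 ± 14.4 BPM per kb in mutant and control kidneys. The ranges of Slc38a10, Slc38a2 and Slc6a18 overlapped within control kidneys, so their order there is not firm, whereas in mutant kidneys Slc38a2 lay above Slc38a10 in all 3. The apical genes Slc6a19, Slc6a20a and Slc36a2 had the lowest levels of the 9 apical members, at 2.46 ± 1.80, 2.26 ± 0.899 and 0.519 ± 0.887 BPM per kb in mutant kidneys and 1.09 ± 0.327, 2.06 ± 0.105 and 0.0837 ± 0.106 BPM per kb in control kidneys.

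Apical carriers of the proximal tubule had a lower mean level in mutant kidneys for most members, but the groups overlapped for all except Slc1a1, and none passed the test. Of the 9, 8 were tested and 6 had a log2 fold change below 0. The median log2 fold change was -0.37, against 0.02 over all genes tested. It was -0.18 without control 7 and -0.56 without control 5. In bulk tissue, fewer proximal tubule cells and less transcript per cell cannot be told apart.

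Slc3a1 read 223, 194 and 139.8 BPM in mutants 6, 8 and 9 and 206, 273 and 266 BPM in controls 5, 7 and 11. Mutant 6 lay above control 5, so the groups overlapped. On the log2 scale the fold change was -0.43 (95% interval -0.87 to 0.00, SE 0.21, limma adjusted p = 0.887), or -0.24 without mutant 9, and p was 0.2 in an exact permutation test (two-sided). Slc3a1 spans bases 85028376 to 85064236 of chromosome 17 in mm10, on the plus strand.

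The promoter window of Slc3a1 is printed because this gene has the highest level per length of the 62 and codes for the shared subunit of the apical cystine carriers, and that of Slc6a20a because it is the other apical gene with a motif of a tubule regulator in it. Capitals mark matches to GTTAAT, a recognition core of the tubule factor HNF1, or to AAAGTCC, a core of the HNF4 site, searched on both strands. The sequences are from RefSeq (GRCm38.p6) and run 5′ to 3′ on the strand of the gene, from 250 bases before to 50 bases after the start.
Slc3a1 (chr17:85028097-85028396, plus strand): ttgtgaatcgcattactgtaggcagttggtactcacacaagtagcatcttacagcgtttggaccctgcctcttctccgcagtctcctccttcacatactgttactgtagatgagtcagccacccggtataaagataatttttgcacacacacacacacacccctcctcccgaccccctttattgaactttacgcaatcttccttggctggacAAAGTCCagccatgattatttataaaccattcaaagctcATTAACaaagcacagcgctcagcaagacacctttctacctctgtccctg
Slc6a20a (chr9:123678783-123679082, minus strand): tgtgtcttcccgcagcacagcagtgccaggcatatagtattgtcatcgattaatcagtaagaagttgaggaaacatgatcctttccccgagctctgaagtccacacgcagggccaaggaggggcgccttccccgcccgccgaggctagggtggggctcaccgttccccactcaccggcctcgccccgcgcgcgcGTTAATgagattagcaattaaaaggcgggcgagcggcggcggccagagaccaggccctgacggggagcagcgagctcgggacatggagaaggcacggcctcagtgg
In Slc3a1 the HNF4 core began 38 bases before the start and the HNF1 core at base 2 after it, with no overlap between them. In Slc6a20a the HNF1 core began 56 bases before the start. These positions count from the start of each RefSeq window, which differs from the GENCODE start in both genes. For Slc3a1 the GENCODE start, given above, lies further downstream, so both cores lie before that start. Promoter windows were held for 44 of the 62 members and for 6 of the 9 apical ones. The HNF1 core was found in 2 of these 6 genes and in 7.1% of all 32851 mouse windows of this length, and the HNF4 core in 1 of 6 genes and 4.21% of windows. Some genes have several windows and were counted if any matched, so shares of genes and of windows are unlike measures. A match of letters is a description and not a bound site.

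The light chains that pair with Slc3a1 behaved unevenly between kidneys. Slc7a13, which takes up aspartate, glutamate and cystine in the later proximal tubule, read 23.1, 29.0 and 33.7 BPM in mutants 6, 8 and 9 and 26.2, 41.2 and 44.3 BPM in controls 5, 7 and 11 (log2 fold change -0.35, SE 0.35). This value was -0.58 without control 5 and -0.21 without either control 11 or mutant 6. Slc7a9, the light chain of the cystine carrier, read 14.1, 13.04 and 11.2 BPM in mutants 6, 8 and 9 and 4.25, 31.0 and 16.4 BPM in controls 5, 7 and 11. The 3 mutant kidneys lay close together, inside the wide control range. The log2 fold change of Slc7a9 was -0.06 (SE 0.53, 95% interval -1.14 to 1.02), and it was -0.78 without control 5 and 0.52 without control 7. Control 5 held an average of only 1.26 covered bases per exon base of Slc7a9, the lowest depth of the 6 libraries.

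Within each kidney the heavy chain was in excess of these light chains. Per length, Slc7a9 amounted to 5.37%, 5.71% and 6.81% of Slc3a1 in mutants 6, 8 and 9 and to 1.75%, 9.66% and 5.24% in controls 5, 7 and 11. Slc7a13 amounted to 11.0%, 15.9% and 25.6% of Slc3a1 in mutants 6, 8 and 9 and to 13.5%, 16.0% and 17.7% in controls 5, 7 and 11. Both shares overlapped between the groups. The broadly expressed heavy chain Slc3a2 (4F2hc) stood over light chains of very unequal level. Slc7a8 per length was 84.7 ± 13.7% of Slc3a2 in mutant and 90.5 ± 9.04% in control kidneys (SD, n = 3 each). Slc7a7 and Slc7a6 were 44.5 ± 3.66% and 46.0 ± 10.003% of Slc3a2 in mutant kidneys and 37.3 ± 19.2% and 51.7 ± 11.4% in control kidneys. Slc7a5 and Slc7a11 were lower, at 6.65 ± 9.998% and 1.85 ± 1.86% in mutant kidneys and 11.3 ± 7.41% and 0.898 ± 0.527% in control kidneys. The groups overlapped for all 5 light chains. Slc3a1 per length was 265 ± 56.9% of Slc3a2 in mutant and 373 ± 85.6% in control kidneys, again with overlap.

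**Figure D2:**
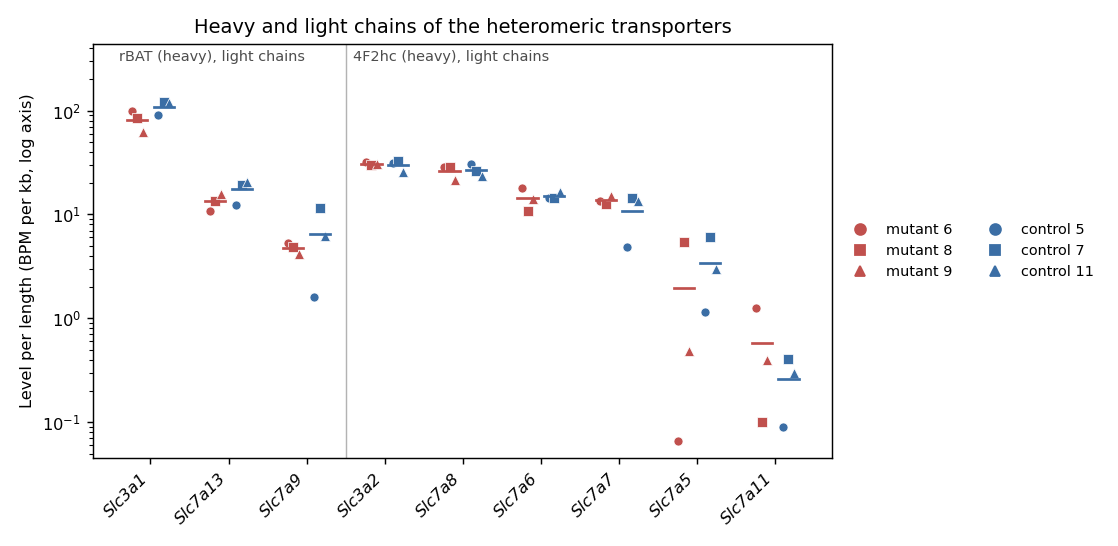
Level per length (BPM per kb of exon, log axis) of heavy and light chains of the heteromeric carriers in each kidney, with mutant kidneys left of control kidneys in each gene and bars at the group mean. Slc3a1 stands near 100 BPM per kb, well above its light chains Slc7a13 and Slc7a9, while Slc3a2 and Slc7a8 stand side by side and Slc7a5 and Slc7a11 lie far lower.

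The family 6 carriers of the brush border differed in level although they are neighbours in the genome. Slc6a18 and Slc6a19 lie 1.721 kb apart on chromosome 13 (73661752 to 73678023 and 73679745 to 73704865, both minus strand). Slc6a18 read 129, 175 and 128 BPM in mutants 6, 8 and 9 and 139.6, 266 and 194 BPM in controls 5, 7 and 11. Its log2 fold change was -0.44 (SE 0.23, limma adjusted p = 0.887), or -0.21 without control 7 and -0.67 without control 5, and the groups overlapped. Slc6a19, the main apical carrier of neutral amino acids in the adult tubule, read 22.7, 6.30 and 7.95 BPM in mutants 6, 8 and 9 and 7.34, 4.27 and 4.81 BPM in controls 5, 7 and 11. Its log2 fold change was 0.87 (SE 0.59, limma adjusted p = 0.896), and mutant 6 carried most of it, since the value was 0.35 without that library. Per length, Slc6a19 reached 15.5%, 3.18% and 5.50% of Slc6a18 in mutants 6, 8 and 9, against 4.64%, 1.42% and 2.19% in controls 5, 7 and 11.

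Slc6a20a and Slc6a20b are adjacent paralogs on chromosome 9, and reads that fit both could be split between them, so the single values are uncertain. Slc6a20b read 36.5, 53.5 and 38.9 BPM in mutants 6, 8 and 9 and 61.9, 65.4 and 42.3 BPM in controls 5, 7 and 11 (log2 fold change -0.38, SE 0.30, or -0.58 without control 11). Slc6a20a read 6.25, 13.3 and 8.06 BPM in mutants 6, 8 and 9 and 8.23, 8.12 and 8.91 BPM in controls 5, 7 and 11 (log2 fold change 0.06, SE 0.55). The groups overlapped for both genes. Slc1a1, the apical carrier of glutamate and aspartate, read 25.9, 34.4 and 33.0 BPM in mutants 6, 8 and 9 and 34.6, 60.2 and 34.6 BPM in controls 5, 7 and 11. The highest mutant kidney lay just under the lowest control kidney, and only control 7 was well above the rest. The log2 fold change of Slc1a1 was -0.42 (SE 0.33), and it was -0.16 without control 7. Slc36a2, an apical carrier of proline and glycine, was near its floor except in mutant 6, at 5.02, 0 and 0.0473 BPM in mutants 6, 8 and 9 and 0, 0.159 and 0.659 BPM in controls 5, 7 and 11.

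Basolateral carriers differed among themselves in direction, and none passed the test. Slc43a2, which lets large neutral amino acids out of the cell, read 96.4, 81.1 and 74.6 BPM in mutants 6, 8 and 9 and 110.4, 108 and 121 BPM in controls 5, 7 and 11. Every mutant kidney lay below every control kidney, and p was 0.1 in the exact permutation test (two-sided), the smallest possible with 3 against 3 kidneys. Its log2 fold change was -0.43 (SE 0.24, limma adjusted p = 0.887), from -0.53 to -0.35 over the 14 alternatives. Slc7a8, the light chain that exchanges neutral amino acids, read 142, 143 and 107 BPM in mutants 6, 8 and 9 and 154, 132 and 116 BPM in controls 5, 7 and 11 (log2 fold change -0.04, 95% interval -0.50 to 0.42). Slc7a7, the light chain that releases dibasic amino acids, read 44.6, 42.2 and 49.7 BPM in mutants 6, 8 and 9 and 16.2, 47.2 and 44.3 BPM in controls 5, 7 and 11. Control 5 alone was low, and the log2 fold change of 0.47 (SE 0.35) was -0.01 without it and 0.73 without control 7. Slc38a3, a glutamine carrier, read 26.6, 23.5 and 16.9 BPM in mutants 6, 8 and 9 and 19.7, 26.2 and 19.0 BPM in controls 5, 7 and 11 (log2 fold change 0.04, SE 0.39). The median log2 fold change of the 4 was -0.003, with 2 below and 2 above 0.

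**Figure D3:**
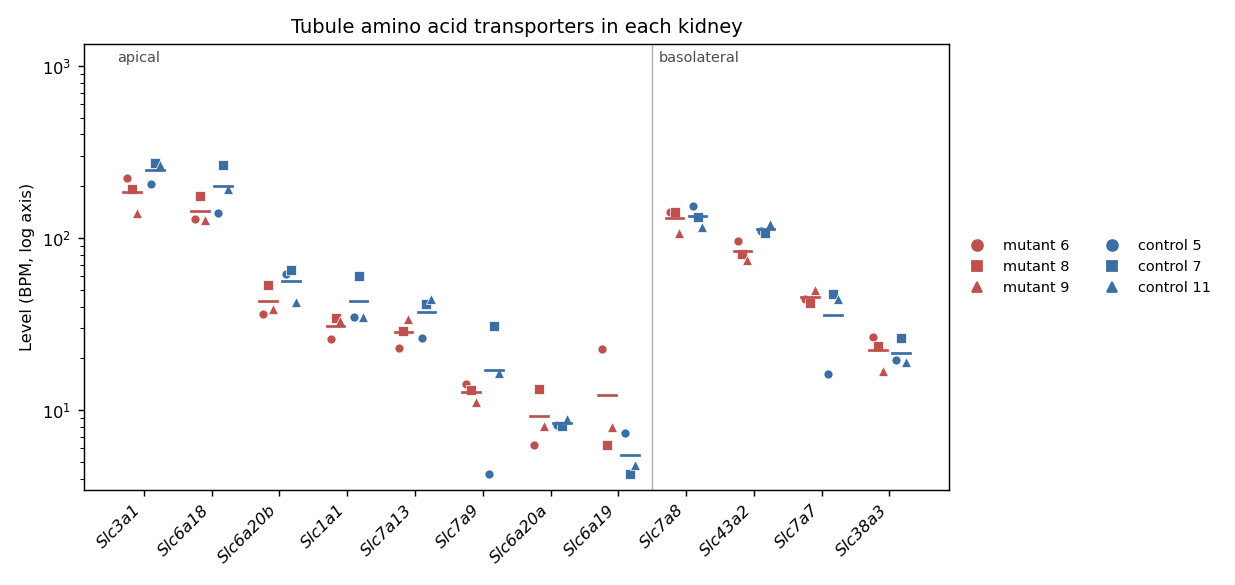
Level (BPM, log axis) of the 8 tested apical and 4 basolateral carriers in each kidney, with mutant kidneys left of control kidneys and bars at the group mean. Slc43a2 and Slc1a1 show mutant kidneys below control kidneys, and the points of both groups intermix for the other 10 genes.

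The proximal tubule markers gave a frame for these values. The summed level of the 26 markers was 5866, 7425 and 5091 BPM in mutants 6, 8 and 9 and 8307, 10177 and 9362 BPM in controls 5, 7 and 11, with no overlap. Their median log2 fold change was -0.51, and 0 of 26 passed an adjusted p of 0.05 (limma, smallest 0.12). Below 0 lay 23 of 26 (88.5%, against 47.4% of all genes), 9 were lower at an unadjusted p under 0.05 (34.6%, against 2.7%) and 7 were lower with no overlap (26.9%, against 5.12%). The median was -0.28 without mutant 9. The summed apical carriers were 486, 518 and 400.1 BPM in mutants 6, 8 and 9 and 488, 749 and 612 BPM in controls 5, 7 and 11. Mutants 6 and 8 thus lay beside control 5. Set against the separate marker sum, the apical sum came to 8.29%, 6.97% and 7.86% in mutants 6, 8 and 9 and 5.87%, 7.36% and 6.53% in controls 5, 7 and 11. This ratio overlapped between the groups, whereas the same ratio for the basolateral sum, at 5.28%, 3.90% and 4.88% in mutants 6, 8 and 9 and 3.62%, 3.08% and 3.21% in controls 5, 7 and 11, did not. Lrp2, one of the 26 markers, gave 1922, 3132 and 2026 BPM of the marker sum in mutants 6, 8 and 9. It gave 3704, 4503 and 3770 BPM in controls 5, 7 and 11, so both ratios depend much on this gene. On the log2 scale the mean apical level minus the mean marker level, relative to control, was 0.40, 0.17 and 0.48 in mutants 6, 8 and 9 and -0.20, 0.27 and -0.07 in controls 5, 7 and 11. The groups overlapped in this difference, with control 7 above mutant 8. Of markers of other cell types, 7 of 7 podocyte (100%), 5 of 7 loop and distal (71.4%) and 2 of 7 collecting duct markers (28.6%) lay below 0. Of all genes, 47.4% did, and 0 of these markers passed an adjusted p of 0.05. Their median log2 fold changes were -0.49, -1.03 and 0.15. Lower without overlap were 1 podocyte (14.3%), 4 loop and distal (57.1%) and 0 collecting duct markers, against 5.12% of all genes. The mean log2 level of the podocyte list and of the loop and distal list was also lower without overlap. Lower levels were thus not particular to the proximal tubule markers. The 6 markers of nephron progenitors, the lineage in which Cre acts, differed in direction. Six2 (log2 fold change 1.01) and Eya1 (0.90) were higher and Cited1 (-1.48) and Meox1 (-1.24) lower without overlap, Crym (0.43) and Osr1 (0.63) overlapped, and 0 passed an adjusted p of 0.05. The part of tubule content in the carriers' values was not tested.

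**Figure D4:**
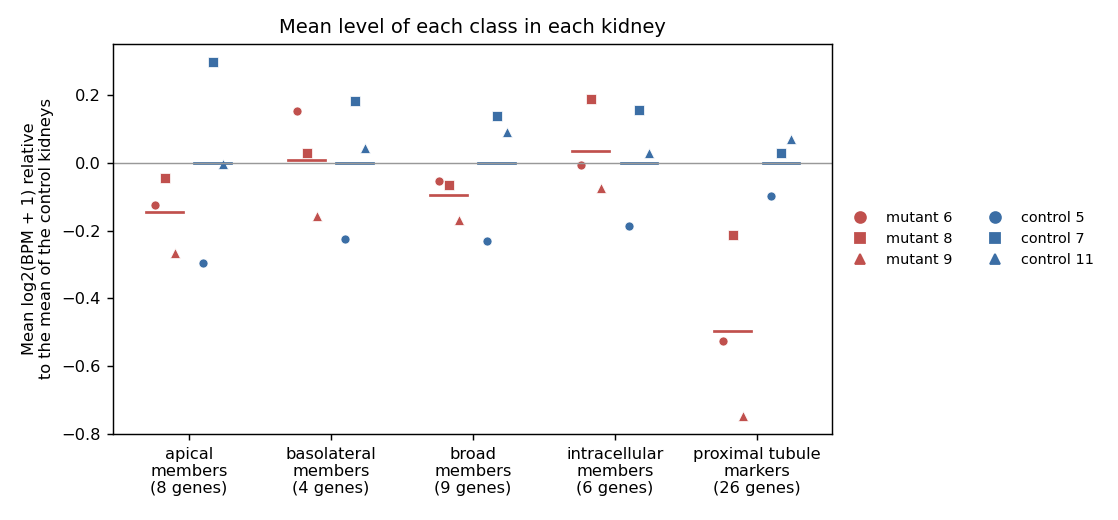
Mean log2(BPM + 1) of each class in each kidney, relative to the mean of the control kidneys, with mutant kidneys left of control kidneys and bars at the group mean. The 26 proximal tubule markers are lower in all 3 mutant kidneys, while control 5 is the lowest of the 6 kidneys in each of the 4 carrier classes.

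Among genes that work with the apical carriers, Tmem27, which encodes collectrin, the protein that brings Slc6a18 and Slc6a19 to the brush border, was lower in every mutant kidney. It read 71.4, 92.4 and 58.0 BPM in mutants 6, 8 and 9 and 99.3, 108 and 112 BPM in controls 5, 7 and 11. This gave a log2 fold change of -0.55 (SE 0.25, limma adjusted p = 0.863, unadjusted 0.0339). Slc16a10, a basolateral carrier of aromatic amino acids, read 37.2, 38.04 and 24.7 BPM in mutants 6, 8 and 9 and 39.9, 63.0 and 41.6 BPM in controls 5, 7 and 11 (log2 fold change -0.51, SE 0.32), also without overlap. This value was -0.31 without control 7 and -0.32 without mutant 9. The peptide carriers Slc15a1 and Slc15a2 averaged 1.31 ± 2.27 and 62.5 ± 30.3 BPM in mutant and 2.27 ± 0.847 and 64.6 ± 17.2 BPM in control kidneys. Their log2 fold changes were -0.91 and -0.12, and both overlapped. The value of Slc15a1, which was at 0 in mutants 8 and 9, was -2.73 with a pseudocount of 0.1, and -1.68 without mutant 6 and -0.53 without mutant 8 or mutant 9. That of Slc15a2 was -0.34 without control 11 and -0.48 without mutant 8. Of the 4 genes given for this group, 0 passed an adjusted p of 0.05 and 4 lay below 0, with a median log2 fold change of -0.53.

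The broadly expressed carriers of the plasma membrane included genes with higher and genes with lower levels in mutant kidneys. All 9 were tested, 5 lay above and 4 below 0, and the median log2 fold change was 0.06, from -0.10 to 0.13 over the alternatives. Slc38a2 read 393, 457 and 470.4 BPM in mutants 6, 8 and 9 and 326, 405 and 268 BPM in controls 5, 7 and 11, with only mutant 6 under control 7. Its log2 fold change was 0.42 (SE 0.19, 95% interval 0.03 to 0.80, limma adjusted p = 0.863, unadjusted 0.0361), or 0.27 without control 11. Slc38a1, which also carries glutamine and small neutral amino acids, read 142, 126 and 143 BPM in mutants 6, 8 and 9 and 81.8, 105 and 116 BPM in controls 5, 7 and 11. The groups did not overlap, and the log2 fold change was 0.45 (SE 0.23, limma adjusted p = 0.887).

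Slc38a4, a system A carrier known from liver and placenta, read 189, 140.0 and 115 BPM in mutants 6, 8 and 9 and 105, 109.6 and 97.4 BPM in controls 5, 7 and 11. All mutant kidneys lay above all control kidneys, with a log2 fold change of 0.48 (SE 0.23, limma adjusted p = 0.875, unadjusted 0.0464) that was 0.29 without mutant 6. Slc38a1, Slc38a2 and Slc38a4 are neighbours on the minus strand of chromosome 15, between 96571418 and 97055956, with gaps of 44.48 and 295.1 kb between them. This grouping by position was seen after the values were known.

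The paralogs Slc1a4 and Slc1a5, both exchangers of small neutral amino acids, went opposite ways in their means. Slc1a5, the glutamine carrier of dividing cells, read 43.3, 26.1 and 25.0 BPM in mutants 6, 8 and 9 and 56.4, 32.3 and 60.7 BPM in controls 5, 7 and 11 (log2 fold change -0.64, SE 0.34). Slc1a4 read 28.8, 27.1 and 20.6 BPM in mutants 6, 8 and 9 and 19.9, 17.7 and 22.8 BPM in controls 5, 7 and 11 (log2 fold change 0.32, SE 0.38). Each overlapped by itself, but the ratio within a kidney did not: Slc1a5 per length was 141%, 90.6% and 114% of Slc1a4 in mutants 6, 8 and 9, against 267%, 171% and 250.1% in controls 5, 7 and 11. The ratio was chosen after the values were seen and has no test. Slc7a1, the general carrier of arginine and lysine, read 37.7, 48.7 and 60.8 BPM in mutants 6, 8 and 9 and 71.5, 63.7 and 78.8 BPM in controls 5, 7 and 11. Every mutant kidney lay below every control kidney (log2 fold change -0.55, SE 0.28, limma adjusted p = 0.887), and the value was -0.38 without mutant 6.

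Slc3a2 was near equal in both groups, at 109 ± 4.32 BPM in mutant and 105 ± 13.5 BPM in control kidneys (SD, n = 3 each, log2 fold change 0.06, 95% interval -0.41 to 0.53). Its light chain Slc7a6 stood at 65.1 ± 16.7 BPM in mutant and 68.9 ± 5.45 BPM in control kidneys (log2 fold change -0.11), and the adjacent gene Slc7a6os, which shares the name but not the function, at 35.9 ± 8.55 and 29.5 ± 12.5 BPM in mutant and control kidneys. Slc7a5, the light chain for large neutral amino acids, scattered over nearly 2 orders of magnitude, at 0.244, 19.97 and 1.81 BPM in mutants 6, 8 and 9 and 4.31, 22.5 and 10.97 BPM in controls 5, 7 and 11. Its log2 fold change of -1.45 (SE 0.88) was -0.57 without mutant 6 and -2.61 without mutant 8. Slc7a11, the cystine and glutamate exchanger, read 17.5, 1.40 and 5.52 BPM in mutants 6, 8 and 9 and 1.26, 5.62 and 4.11 BPM in controls 5, 7 and 11. Mutant 6 alone was high, and the log2 fold change of 0.64 (SE 0.73) was -0.10 without it. Both light chains were thinly covered, at as little as 0.0715 covered bases per exon base for Slc7a5 and 0.0718 for Slc7a11.

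Slc7a11 is a classic target of ATF4, the transcription factor of the amino acid shortage response, and its promoter window shows paired sites for that factor. Capitals mark matches to TGATGNAA, the composite site of ATF4 and its C/EBP partners, on either strand (RefSeq, GRCm38.p6).
Slc7a11 (chr3:50443564-50443863, minus strand): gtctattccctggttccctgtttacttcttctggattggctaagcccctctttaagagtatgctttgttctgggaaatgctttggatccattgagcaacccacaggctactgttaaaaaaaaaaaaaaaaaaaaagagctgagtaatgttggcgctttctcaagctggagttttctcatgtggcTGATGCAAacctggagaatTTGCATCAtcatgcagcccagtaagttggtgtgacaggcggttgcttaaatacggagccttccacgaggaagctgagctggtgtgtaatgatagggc
The matches began 66 and 47 bases before the start, and did not overlap. This motif was found in 3 of 44 member genes (Slc1a4, Slc7a7 and Slc7a11) and in 3.97% of all windows. Here too a gene with several windows, such as Slc7a7, was counted if any matched, so the measures are unlike. Of 16 genes of the ATF4 amino acid response, 15 were tested, and 0 passed an adjusted p of 0.05 or an unadjusted p of 0.05. The median log2 fold change was -0.10, with 9 below 0 and 6 above. The 4 with the smallest p were Ddit4, an inhibitor of mTORC1 (0.76), Atf4 (0.40), Cth, an enzyme of cysteine synthesis (-0.45), and Phgdh, an enzyme of serine synthesis (-0.37), given as log2 fold changes, and each overlapped between the groups. All 4 kept their sign over the 14 alternatives, but their size varied with the library left out. Without control 5, Ddit4 was 0.34, Atf4 0.62, Cth -0.76 and Phgdh -0.55. Without control 11, Ddit4 was 1.21, Atf4 0.14 and Phgdh -0.15. Cth was -0.21 without control 7, and Atf4 and Phgdh were 0.26 and -0.21 without mutant 9. Asns, the asparagine synthetase gene often used as a readout of ATF4, was outside that choice and stood at 12.7 ± 7.10 BPM in mutant and 17.1 ± 4.29 BPM in control kidneys.

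Carriers of lysosomes and other internal membranes also split. Of 7, 6 were tested and 3 lay below and 3 above 0, with a median log2 fold change of 0.11 that was -0.09 without mutant 8. Slc38a10 read 256, 267 and 260.5 BPM in mutants 6, 8 and 9 and 326, 278 and 519 BPM in controls 5, 7 and 11. The mutant kidneys lay close together (SD 5.33 BPM), all below the control kidneys, of which control 11 was far above the rest. This gave a log2 fold change of -0.47 (SE 0.21, limma adjusted p = 0.863, unadjusted 0.031), and -0.20 without control 11. Slc36a4, a carrier of proline and tryptophan, read 38.3, 30.8 and 51.9 BPM in mutants 6, 8 and 9 and 22.9, 25.9 and 23.7 BPM in controls 5, 7 and 11, with all mutant kidneys above all control kidneys (log2 fold change 0.69, SE 0.35, limma adjusted p = 0.887). Slc38a7, a lysosomal glutamine exporter, averaged 14.0 ± 0.565 BPM in mutant and 24.3 ± 9.54 BPM in control kidneys. Slc38a9, the lysosomal arginine sensor of mTORC1, averaged 26.4 ± 8.68 BPM in mutant and 18.7 ± 3.72 BPM in control kidneys. Slc36a1 averaged 32.3 ± 12.7 and 33.9 ± 7.16 BPM, and Slc38a6 8.31 ± 1.00 and 6.42 ± 1.24 BPM, in mutant and control kidneys (SD, n = 3 each). The groups overlapped for these last 4 genes.

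**Figure D5:**
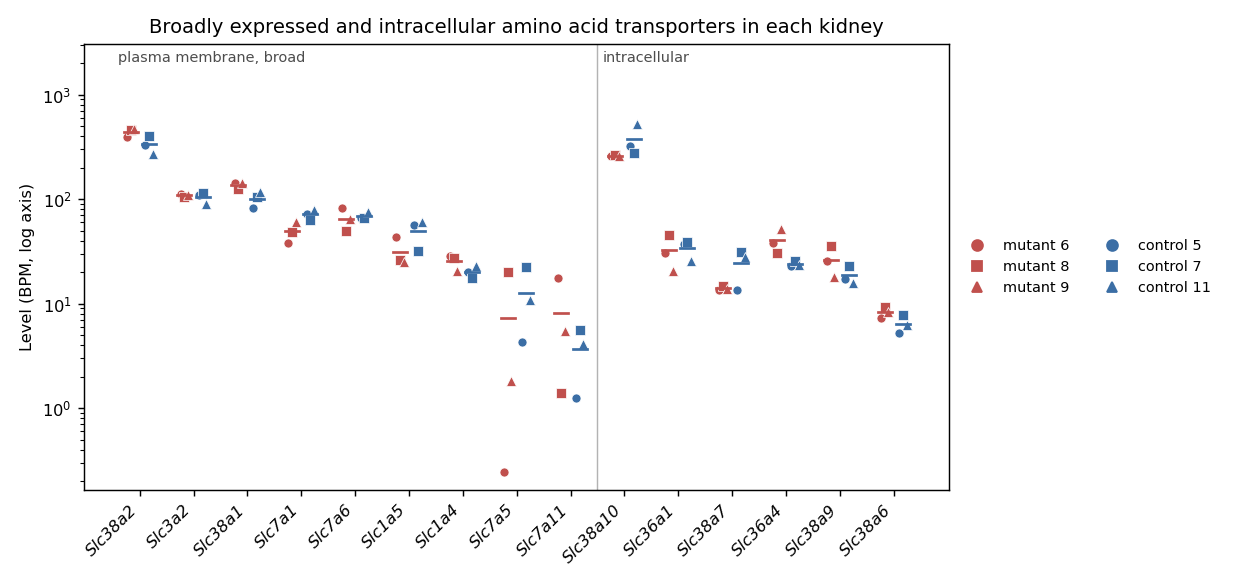
Level (BPM, log axis) of the 9 broadly expressed and 6 tested intracellular carriers in each kidney, with mutant kidneys left of control kidneys and bars at the group mean. Slc38a1 and Slc36a4 show mutant kidneys above control kidneys, Slc7a1 and Slc38a10 show them below, and Slc7a5 and Slc7a11 scatter widely within each group.

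Carriers of osmolytes and creatine had no member apart between the groups. Slc6a6, the taurine carrier, was level at 187 ± 13.7 BPM in mutant and 188 ± 18.9 BPM in control kidneys (SD, n = 3 each, log2 fold change -0.004, 95% interval -0.42 to 0.42). Slc6a13, a basolateral carrier of GABA and taurine, read 20.2, 38.7 and 22.7 BPM in mutants 6, 8 and 9 and 26.4, 34.5 and 69.7 BPM in controls 5, 7 and 11, and control 11 alone was high. Its log2 fold change was -0.59 (SE 0.37), or -0.20 without control 11. Slc6a8, the creatine carrier, averaged 15.3 ± 2.34 BPM in mutant and 22.8 ± 7.06 BPM in control kidneys. Slc6a12, the betaine carrier of the hypertonic medulla, was at most 1.52 BPM in any kidney and was not tested.

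Members known from neurons and glia were mostly at their floor, and 8 of the 14 were not tested. Slc1a3, the glutamate and aspartate carrier of glia that other tissues also express, read 57.4, 37.9 and 33.8 BPM in mutants 6, 8 and 9 and 18.2, 31.9 and 21.2 BPM in controls 5, 7 and 11. All mutant kidneys lay above all control kidneys, with a log2 fold change of 0.83 (SE 0.35, 95% interval 0.12 to 1.55, limma adjusted p = 0.854, unadjusted 0.0238) that was 0.61 without mutant 6. The 8 neural and glial markers summed to 21.6, 8.97 and 7.76 BPM in mutants 6, 8 and 9 and 10.9, 14.8 and 13.4 BPM in controls 5, 7 and 11, with the glial factor Sox10 at 0 in all kidneys except control 11 (0.68 BPM). Slc6a17, a neutral amino acid carrier of synaptic vesicles, was higher without overlap at 31.4 ± 6.78 BPM in mutant and 19.5 ± 6.02 BPM in control kidneys (log2 fold change 0.69, SE 0.38, or 0.44 without control 5). Slc6a4, the serotonin carrier, read 1.28, 1.07 and 1.89 BPM in mutants 6, 8 and 9 and 3.56, 5.78 and 6.10 BPM in controls 5, 7 and 11, lower without overlap at a depth of 0.221 to 1.66 covered bases per exon base (log2 fold change -1.34, SE 0.72). Slc6a15, Slc6a9 and Slc1a2 averaged 14.2 ± 6.61, 9.34 ± 4.24 and 0.905 ± 0.842 BPM in mutant kidneys and 17.5 ± 7.10, 10.3 ± 4.79 and 1.91 ± 2.40 BPM in control kidneys, and their groups overlapped. The 8 that did not reach the minimum included Slc1a6, Slc1a7, Slc6a2, Slc6a3, Slc6a5, Slc6a7 and Slc6a11, and of these Slc1a7 and Slc6a5 were listed at 0 in every kidney.

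Of the 14 members listed as known from other tissues, 7 were tested, Slc38a4 among them. Slc7a2, an arginine carrier, stood at 31.2 ± 3.70 BPM in mutant and 22.4 ± 11.0 BPM in control kidneys, and Slc7a4, a relative of the cationic carriers, at 4.51 ± 4.40 and 9.77 ± 2.66 BPM in mutant and control kidneys. Slc7a12, a light chain relative, is in this list although it is described in mouse kidney. Its level was 30.3 ± 9.10 BPM in mutant and 33.1 ± 18.6 BPM in control kidneys. Slc43a3, which carries purine bases, stood at 77.6 ± 16.4 and 80.2 ± 9.12 BPM in mutant and control kidneys. Slc43a1, a carrier of large neutral amino acids, stood at 7.86 ± 4.77 and 5.20 ± 4.65 BPM, and Slc7a3 at 1.84 ± 1.42 and 0.906 ± 0.894 BPM, in mutant and control kidneys (SD, n = 3 each). All 6 overlapped between the groups. Slc6a14, Slc7a10, Slc38a5, Slc38a8 and Slc38a11 did not reach the minimum, and Slc7a15 and Slc36a3, like Slc7a14 of the intracellular class, were listed at 0 in every kidney.

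In the authors' deposited table, whose ratio divides the mutant by the control mean, 4 of the 62 members had an unadjusted p under 0.05. These were Slc6a4 (ratio 0.274, p = 0.0111), Slc43a2 (0.743, p = 0.0194), Slc38a1 (1.36, p = 0.0364) and Slc7a1 (0.688, p = 0.0493) in the authors' deposited table, each of them also without overlap between the groups. The share of all genes under that p was not computed, so this count has no background and is not read as a result.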

How the data were processed

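Total RNA of 6 E17 kidneys was depleted of ribosomal RNA and made into barcoded Ion libraries, per the labels' protocols. The build mm10 and bedtools are named, without role, per the submitters' processing notes; for aligner, annotation and strand use, the step is not given in the sources used here. In the deposited signal columns, a value is base coverage of the gene plus 1, multiplied by a library factor that equalizes totals. This was read from the values: 100% were whole multiples of the column's smallest value (tolerance 0.001). The deposited ratio (fold) is the mutant over the control mean, and the deposited p-value is unadjusted, by the authors.

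Covered bases were recovered by removing the floor and factor and scaled to 1000000 per library (BPM). A minimum of 1 BPM in 3 or more libraries left 13977 of 23219 genes. Mutant and control were compared on log2(BPM + 1), which understates changes of low genes, with limma 3.58.1 (R 4.3.3; trend and robust options, no covariate, two-sided, Benjamini-Hochberg over all genes kept). The procedure was tested on simulated data with the spread of the real libraries, in 10 runs. It recovered 16.7% of 2-fold and 70.1% of 4-fold changes, and 3.27% of its calls were false. Most 2-fold changes were thus missed, so a gene that did not pass is not shown to be unchanged. Single genes were also compared by exact permutation over kidneys, which cannot go below p = 0.1. Exon lengths and positions are from GENCODE M21 (mm10); whether the authors counted exons only is not known, so levels per length are approximate.

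Every tested apical, basolateral and broadly expressed member is named, as is each other member with an unadjusted p under 0.05, the members at the highest level of each class, the partner genes, and the 4 ATF4 genes with the smallest p; members named beyond this rule complete the account. The members and lists were chosen with earlier results of these data known. Single values of a few genes are not reported here. Alternatives covered scaling, pseudocount, filter, trend, sample weights and libraries left out.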

Additional observations from a re-analysis of the deposited data

How the results depend on the processing

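Over 14 alternatives, limma called 0 members in every one, with the smallest adjusted p of a member between 0.449 (without mutant 8) and 0.973 (without mutant 6). The apical median stayed between -0.56 and -0.18. The number of members lower at an unadjusted p under 0.05 was 1, and it was 3 with median-of-ratios scaling, 4 with quantile normalization, 3 with no filter on low values, and 1 to 6 with each library left out in turn. The number of higher members was 3, and it was 5 with sample weights and 0 to 3 with each library left out. The broadly expressed median was -0.10 to 0.13 and the intracellular median -0.091 to 0.25 with each library left out, and the basolateral median was -0.19 without both control 11 and mutant 6. Scaling moved the median of all genes by less than 0.1, and the cause of these shifts was not tested.

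Of 516 log2 fold changes of 37 named genes under the alternatives, 488 kept their sign and 28, in 12 genes with small or scattered values, did not. Slc38a3 turned to -0.036 and Slc6a6 to 0.022 with sample weights. With 1 library or both control 11 and mutant 6 left out, the log2 fold change ran for Slc38a3 from -0.18 to 0.22, for Slc3a2 from -0.077 to 0.13, for Slc6a6 from -0.088 to 0.079, for Slc7a9 from -0.78 to 0.52, for Slc7a7 from -0.011 to 0.73, for Slc7a8 from -0.21 to 0.094, for Slc7a12 from -0.33 to 0.38, for Slc15a2 from -0.48 to 0.20, for Slc7a11 from -0.10 to 1.37, for Slc6a20a from -0.22 to 0.31, for Slc7a6 from -0.29 to 0.077 and for Slc36a1 from -0.40 to 0.16.

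Depth limits Slc7a5, Slc7a11, Slc6a4 and the members under the minimum, where few covered bases stand behind a value. No paired analysis was possible because the labels do not give the embryo or litter of a kidney. Kidneys that share a litter, if any, could not be taken into account.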
